A study of Mus musculus with 24 samples.

Results

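The comparison described here is that of class 8 with class 4 in mouse liver, first averaged over 2 genotypes and then within each. Of the 24 RNA-seq libraries, 16 enter it: the 8 whose titles end in 8 and the 8 whose titles end in 4, with 4 libraries of each genotype on each side. The genotypes are wild type (WT) and transgenic (TGA), both of strain C3H/HeJ, and the 4 groups are WT class 4, WT class 8, TGA class 4 and TGA class 8. The other 8 libraries, of class 2, enter the fit only for the estimate of the spread and are given for comparison. The labels do not say what the class suffix stands for, and a reading as hepatocyte ploidy rests on the series title alone. They do not name the transgene, its promoter or the cells that carry it, and they give no treatment, age or time. Nothing in them ties the libraries of a group to separate animals, and every p-value below is set against a spread among libraries that may be technical.

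Hepatocytes, the main cells of the liver, often carry more than the usual number of chromosome sets, in 1 nucleus or spread over more than 1. Their RNA includes messenger RNA of the nuclear genome, transcripts made inside mitochondria, and non-coding RNAs of the nucleus and the nucleolus. Mitochondrial DNA encodes core subunits of the respiratory chain. Small nucleolar RNAs (snoRNAs) guide chemical changes and cuts of ribosomal RNA, mostly from introns of host genes, and the box C/D kind carries the short motifs C near its start and D near its end. Vault RNA is part of the vault particle, and RNase P, whose RNA is Rpph1, trims the 5′ end of transfer RNA.

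A pair of box C/D snoRNAs and 1 miRNA were among the genes that the comparison turned on, and their sequences are printed to show what these symbols stand for. The snoRNAs are from GENCODE vM21 on GRCm38, a later build than the mm9 of the submitters' processing notes. Snord17 lies at chr2:144265979-144266216 on the minus strand, within Snx5 (a sorting nexin) and outside its annotated exons. Snord15a lies at chr7:99482785-99482932 on the minus strand, within Rps3 (a ribosomal protein) and outside its annotated exons. Capitals mark the first TGATGA (box C) and the last CTGA (box D), searched on the RNA's own strand. Of 98 Snord transcripts in the annotation, 73.5% held TGATGA and a CTGA within the last 20 bases, against 0% of 42 Snora transcripts, which are of the other main kind. The miRNA is mature miR-6236 from RefSeq (GRCm38.p6), at chr9:110281353-110281371 on the plus strand, with its seed (bases 2 to 8) in capitals.
Snord17: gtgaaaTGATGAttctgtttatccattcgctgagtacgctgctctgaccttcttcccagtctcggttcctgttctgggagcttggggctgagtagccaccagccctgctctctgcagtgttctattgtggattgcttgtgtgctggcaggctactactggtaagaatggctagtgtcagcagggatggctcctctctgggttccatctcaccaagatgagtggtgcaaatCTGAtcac
Snord15a: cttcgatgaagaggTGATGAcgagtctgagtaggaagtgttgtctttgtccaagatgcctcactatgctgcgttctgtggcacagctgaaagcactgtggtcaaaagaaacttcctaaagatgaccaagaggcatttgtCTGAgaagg
miR-6236: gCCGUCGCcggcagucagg

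All levels below are log2(normalised count + 1) of a gene's deposited value in a library, and all differences are class 8 minus class 4 of these levels, with the standard error (SE) of a limma fit. Read totals cannot be had from values of this kind, which leaves the depth unknown, and no interval for counting error can be given. The number of genes listed above 0 stands in for it, and it ran from 2145 to 14469 in WT class 4 and from 2479 to 3814 in WT class 8. In TGA it ran from 1624 to 3440 in class 4 and from 2110 to 9096 in class 8. There were 2 libraries that stood apart, WT number 1 class 4 with 14469 genes and TGA number 3 class 8 with 9096, and they lie on opposite sides of the comparison. The mean number differed by -547 genes between class 8 and class 4 (two-sided exact permutation within genotype, 4900 assignments, p = 0.782, 4 libraries in each group), and by 888 genes without WT number 1 class 4. Of the values of the 4875 genes tested, 51.2% were 0 in WT class 4, 61.7% in WT class 8, 67.3% in TGA class 4 and 54.6% in TGA class 8. By these group shares the zeros weigh on class 8 in WT and on class 4 in TGA. The WT direction rests on WT number 1 class 4, with 5.11% of tested values at 0. The other WT class 4 libraries had 56.5%, 72.6% and 70.5%, and those of WT class 8 ran from 54.3% to 67.1%. The part of the zeros in the results that follow was not tested.

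**Figure D1:**
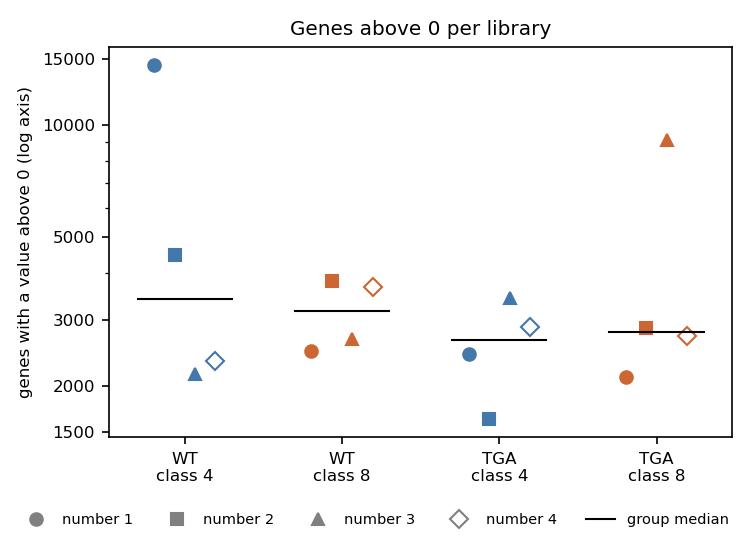
Number of genes with a deposited value above 0 in each of the 16 libraries (points, log axis), by genotype and class, with the group median (line). WT number 1 class 4 (14469 genes) and TGA number 3 class 8 (9096 genes) stand above the other 14.

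The libraries held hepatocyte RNA with gaps. Cyp2e1 (an ethanol-metabolising P450) and Apoa1 (the main protein of HDL) were above 0 in all 16 libraries, while Alb (albumin, the hepatocyte's most abundant secreted protein) was above 0 in 12. Alb was listed at 0 in 2 WT class 4 and 2 WT class 8 libraries and ran from 7.76 to 10.35 in the 8 TGA libraries. Gapdh (a glycolytic enzyme of every cell) was above 0 only in WT number 1 class 4, at 0.96, and TGA number 4 class 4, at 3.35. Anln, the gene of the cytokinesis scaffold anillin, was at 0.82 in WT number 2 class 8 and listed at 0 in the other 15. A value of 0 can thus be a transcript that was missed, and values of 0 are counted for each side below. The most frequent normalised count above 0 ran from 0.0595 in WT number 1 class 4 to 20.8 in TGA number 2 class 4. A low level in a library and a 0 in another therefore cannot always be ranked, also where groups are said not to overlap.

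Averaged over both genotypes, no gene of 4875 passed an adjusted p of 0.05 (0%; limma, Benjamini-Hochberg over all genes tested, smallest adjusted p = 0.718). At an unadjusted p under 0.05, 180 genes (3.69%) had a positive difference and 141 (2.89%) a negative one. For no gene did all 8 class 8 libraries lie above (0%) or below (0%) all 8 class 4 libraries. The median difference over all genes tested was 0.06. The genes below are therefore described by their values, and none of them passed the adjusted test. In bulk RNA of this kind, fewer cells of a type and less RNA per cell cannot be told apart.

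The gene with the smallest p was Vaultrc5, the mouse vault RNA. In WT its levels were 8.35, 9.98, 8.02 and 7.07 in class 4 and 11.81, 12.56, 9.15 and 9.91 in class 8. In TGA they were 5.71, 5.86, 3.05 and 0 in class 4 and 7.54, 8.47, 7.43 and 6.91 in class 8. The TGA groups did not overlap, and in WT 2 of the 4 class 8 libraries lay below the highest class 4 library. The difference was 3.22 ± 0.78 over both genotypes (SE, limma, unadjusted p = 0.000165, adjusted p = 0.718), 2.5 ± 1.11 in WT and 3.93 ± 1.11 in TGA. Its class 2 levels averaged 11.15 in WT and 10.28 in TGA, against class 8 means of 10.86 and 7.59.

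Rpph1, the RNA subunit of RNase P, was above 0 in all 16 libraries and had a narrow spread. In WT its levels were 11.81, 12.56, 11.26 and 11.35 in class 4 and 12.56, 12.73, 12.08 and 12.73 in class 8. In TGA they were 10.25, 10.35, 10.26 and 12.08 in class 4 and 12.73, 13.42, 9.92 and 13.42 in class 8. TGA number 3 class 8, the library with the most genes of its group, lay below all 4 class 4 libraries, and the other 3 class 8 libraries lay above them. The difference over both genotypes was 1.21 ± 0.38 (adjusted p = 0.718). Without that 1 library it was 1.62 ± 0.31 and passed the test (limma, adjusted p = 0.018), and without WT number 1 class 4 as well it was 1.63 ± 0.31 (adjusted p = 0.0237).

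The vault, 7SK, RNase P, MRP, Y and telomerase RNAs were fixed as 1 list of 9, of which 7 were tested. All 7 had a positive difference over both genotypes, with a median of 1.21 against 0.06 for all genes tested. Vaultrc5 and Rpph1 had an unadjusted p under 0.05, as 3.69% of all genes tested did with a positive difference. The next was Rn7sk (7SK RNA, a brake on transcription elongation) at 2.13 ± 1.12. Terc (telomerase RNA), Rmrp (the RNA of RNase MRP) and the signal recognition particle RNAs Rn7s1 and Rn7s2 had differences of 1.21, 0.73, 0.64 and 0.53. Rny1 and Rny3, both Y RNAs below the filter on low values, also averaged higher in class 8, so that 9 of 9 members did. The list was chosen with earlier results of these data known, so these counts describe it and support nothing by themselves. Outside the list, the RNase P RNA-like Rprl1 and Rprl2 had differences of -0.16 ± 1.02 and 0.58 ± 0.93. The medians of the list were 0.92 in WT and 1.28 in TGA.

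Of the snoRNAs and the Cajal body RNAs related to them, 123 were in the table, 96 were listed at 0 in all 16 libraries and 14 were tested. All 14 tested members had a positive difference over both genotypes, with a median of 1.89, and 5 had an unadjusted p under 0.05. A positive difference at that p was held by 3.69% of all genes tested. Of the 27 members above 0 in any of the 16 libraries, 21 averaged higher in class 8 and 6 lower. A member near the filter on low values can pass through the class where it is high, so these counts describe the list and support nothing by themselves. Without the 2 libraries that stood apart, all 14 again had a positive difference, with a median of 2.35.

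Snord17, whose sequence is printed above, is named for the smallest p of that list. In WT its levels were 7.29, 3.37, 0 and 0 in class 4 and 6.73, 8.09, 0 and 4.46 in class 8. In TGA all 4 class 4 libraries were listed at 0, and class 8 stood at 6.32, 7.33, 0.5 and 7.39. The WT groups overlapped. The TGA groups did not as listed, but the 0.5 of TGA number 3 class 8 lay close to 0. The most frequent normalised count above 0 was 0.333 in that library and 2.35 to 20.8 in the TGA class 4 libraries. Whether its 0.5 exceeds their zeros thus cannot be told. The difference was 3.77 ± 1.28 (adjusted p = 0.718). It was 5.36 without the libraries over 7000 genes above 0, where it passed the test (limma, adjusted p = 0.0247).

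Snord15a, the snoRNA within Rps3, was above 0 in 15 of the 16 libraries. In WT its levels were 8.23, 9.8, 0 and 7.38 in class 4 and 10.73, 9.66, 8.43 and 8.71 in class 8. In TGA they were 6.73, 6.76, 5.73 and 7.54 in class 4 and 6.8, 8.72, 8.06 and 9.7 in class 8. The groups overlapped in both genotypes, and the difference was 2.33 ± 0.88 (adjusted p = 0.718). The other 3 members with an unadjusted p under 0.05, named after their values were seen, were Snord118 (U8, needed for ribosomal RNA maturation) at 2.85 ± 1.21, Snord22 at 2.61 ± 1.2 and Scarna2, a Cajal body RNA, at 2.6 ± 1.19. Reads of an intron of the host gene and reads of the snoRNA within it cannot be told apart in these values.

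**Figure D2:**
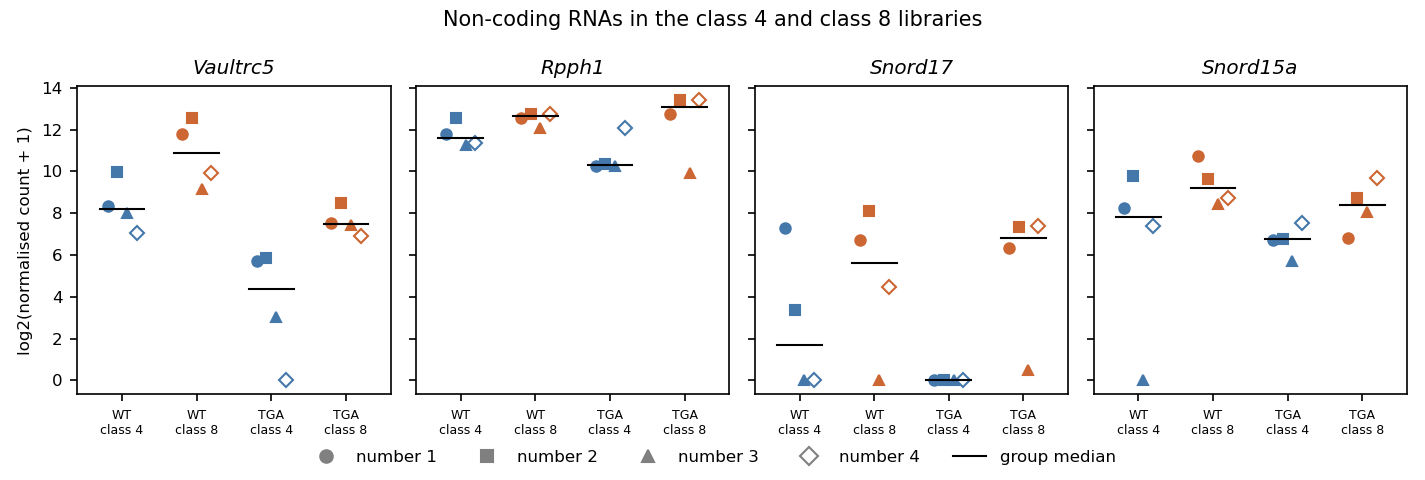
Levels of Vaultrc5, Rpph1, Snord17 and Snord15a, as log2(normalised count + 1), in each of the 16 libraries (points) by genotype and class, with the group median (line). The TGA class 8 libraries lie above the TGA class 4 libraries for Vaultrc5 and, by listed values only, for Snord17. TGA number 3 class 8 is the lowest point of its group for Rpph1 (9.92) and Snord17 (0.5).

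Mitochondrial-encoded transcripts had differences of the opposite sign. Of 13 such genes in the table, 5 were listed at 0 in all 16 libraries (ND4L, COX2, COX3, ATP6 and ATP8) and 7 were tested. All 7 had a negative difference over both genotypes, with a median of -2.02, and ND3, which was above 0 in 1 library only, also averaged lower in class 8. The median was -3 in WT, where 7 of 7 were negative, and -1.75 in TGA, where 5 of 7 were. COX1, CYTB and ND5 had an unadjusted p under 0.05, and none passed the adjusted test. A negative difference at that unadjusted p was held by 2.89% of all genes tested.

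COX1, the catalytic subunit of cytochrome c oxidase, had the largest difference of these genes. In WT its levels were 9.55, 9.45, 11.15 and 9.44 in class 4 and 0, 0, 7.52 and 8.96 in class 8, and the groups did not overlap. In TGA they were 8.77, 4.44, 10.02 and 10.06 in class 4 and 0, 6.79, 8.92 and 7.73 in class 8, and the groups overlapped. The difference was -4.12 ± 1.25 over both genotypes (limma, unadjusted p = 0.00198, adjusted p = 0.718), -5.77 ± 1.77 in WT and -2.46 ± 1.77 in TGA. The 3 values of 0 in class 8 against none in class 4 enter this difference at full size.

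CYTB, the cytochrome b of complex III, had WT levels of 9.69, 9.44, 9.53 and 9.89 in class 4 and of 0, 8.05, 8.52 and 9.98 in class 8. In TGA its levels were 8.19, 7.84, 11.81 and 8.65 in class 4 and 4.58, 5.64, 9.61 and 7.37 in class 8. The groups overlapped in both genotypes, and the difference was -2.66 ± 0.97. ND5, a subunit of complex I, was above 0 in all 16 libraries. Its WT levels were 10.06, 10.82, 13.71 and 9.66 in class 4 and 6.52, 7.77, 11.26 and 9.8 in class 8, and its difference was -2.02 ± 0.83 over both genotypes.

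The other complex I subunits had differences of -2.39 ± 1.34 (ND4), -1.83 ± 1.13 (ND6), -1.67 ± 1.15 (ND2) and -0.88 ± 1.01 (ND1). ND1, ND2 and ND4 did not overlap between the WT groups, with every class 8 library below every class 4 library. The same held for 15 (0.308%) of all genes tested, with these and COX1 among them. In TGA, ND1 and ND6 had positive differences of 0.76 ± 1.43 and 0.41 ± 1.6. TGA number 2 class 4 was at 0 for ND1, ND2 and ND4 and held the lowest mean over the 7 genes of its group, 3.94. The difference between genotypes was not past the test for any of the 7, and the largest was 4.5 ± 2.26 for ND6 (limma interaction, adjusted p = 0.925).

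Side by side with class 2, it was class 4 that stood at one end for these 3 lists. The mean level of the mitochondrial transcripts was 6.31 in WT class 2, 10.05 in WT class 4 and 6.75 in WT class 8, and 6.87, 8.31 and 7.17 in the TGA classes. For the snoRNAs the means were 4.97, 2.22 and 4.31 in WT and 4.75, 1.57 and 3.17 in TGA. For the vault, 7SK and RNase P group they were 8.42, 6.99 and 8.31 in WT and 8.08, 5.67 and 7.11 in TGA. Both comparisons that can be drawn from these values share the class 4 libraries. The nuclear genes of oxidative phosphorylation, of which 55 of 110 were listed at 0 in all 16 libraries, gave a median difference of -0.16 over 14 tested members. Of these, 5 were positive and 9 negative, and without the 2 libraries that stood apart 8 were positive and 3 negative.

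**Figure D3:**
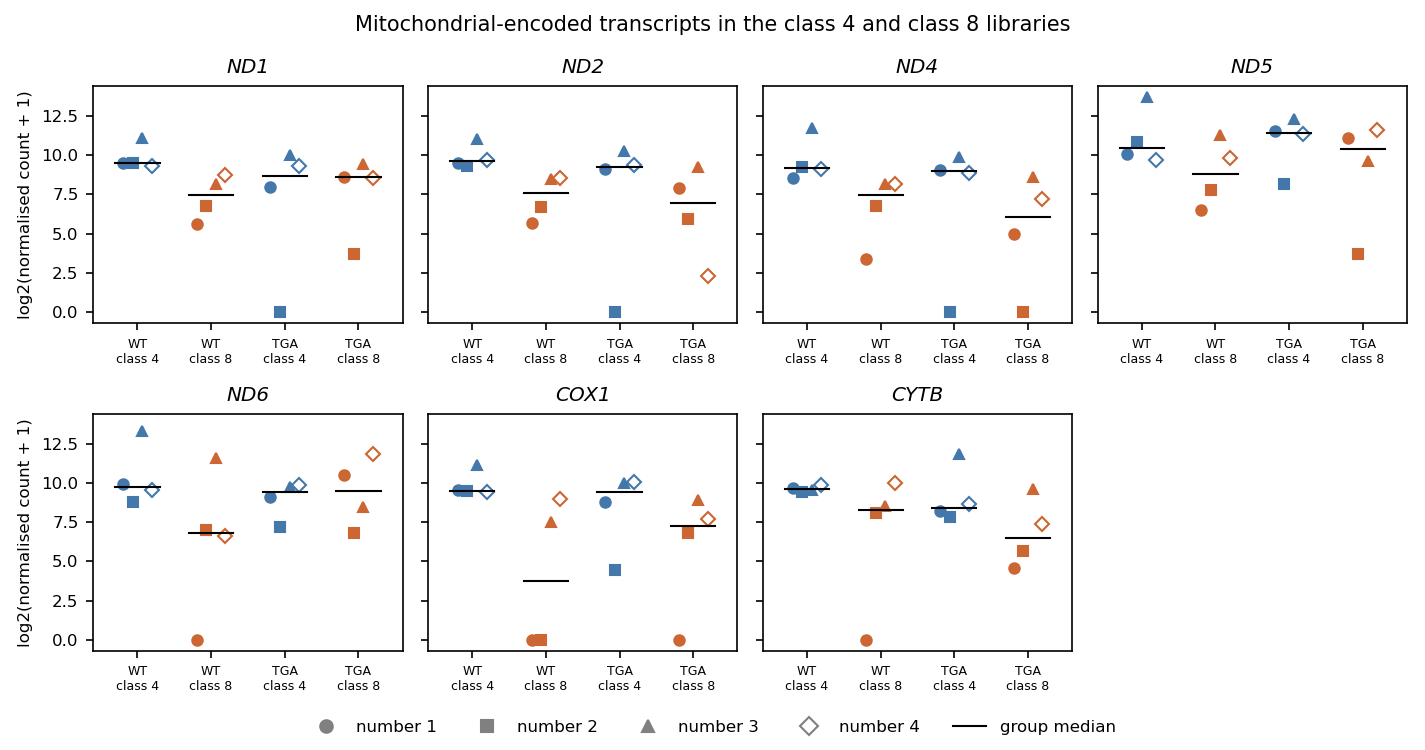
Levels of the 7 tested mitochondrial-encoded transcripts, as log2(normalised count + 1), in each of the 16 libraries (points), with the group median (line). For COX1, ND1, ND2 and ND4 all 4 WT class 8 libraries lie below all 4 WT class 4 libraries, and the TGA groups overlap for all 7 genes.

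The remaining genes with the smallest p on the positive side were protein-coding. Aspg, an asparaginase homologue, had WT levels of 6.26, 0, 0 and 0 in class 4 and 5.69, 6.86, 0 and 4.22 in class 8. In TGA its levels were 0, 0, 0 and 1.19 in class 4 and 7.88, 6.72, 6.43 and 4.8 in class 8. The TGA groups did not overlap, and the only WT class 4 library above 0 was number 1, that with 14469 genes. The difference was 4.39 ± 1.17 over both genotypes and 6.16 ± 1.66 in TGA (adjusted p = 0.718 and 0.565).

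Ftcd, an enzyme of histidine breakdown that passes 1-carbon units to folate, had the same layout. Its WT levels were 6.69, 0, 0 and 0 in class 4 and 5.86, 4.44, 5.7 and 1.68 in class 8. In TGA they were 0, 0, 2.29 and 3.7 in class 4 and 6.55, 7.01, 5.25 and 5.5 in class 8, without overlap. The difference was 3.66 ± 1.08. Without the 4 libraries over 7000 genes above 0, Aspg and Ftcd passed the test at 5.18 ± 1.09 and 4.64 ± 0.96 (limma, adjusted p = 0.0344 for both).

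Cluh, which binds messenger RNAs of mitochondrial proteins, was above 0 in all 8 class 8 libraries, between 4.78 and 6.35. In class 4 it stood at 4.78, 0, 0 and 3.82 in WT and at 0, 5.32, 0 and 0 in TGA. The difference was 3.96 ± 1.13. Abhd2 (a lipid hydrolase), Myh14 (a non-muscle myosin heavy chain), Myo6 (a myosin of endocytosis), Wdr26 (a ubiquitin ligase subunit) and Bptf (a chromatin remodelling subunit) had differences between 3.2 and 4.03. Bptf was at 0 in all 4 TGA class 4 libraries and in TGA number 1 class 8, and its other TGA levels were 4.33, 4.34 and 4.01. Wdr26 did not overlap between the WT groups, where class 8 stood at 6.12, 5.36, 6.19 and 5.77 and class 4 at 3.55, 0, 0 and 0.

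On the negative side most leading genes were at 0 in nearly all class 8 libraries. Kcnn3, a calcium-activated potassium channel, was listed at 0 in all 8. In class 4 its levels were 5.51, 0, 5.73 and 0 in WT and 3.57, 0, 6.46 and 5.81 in TGA. The difference was -3.38 ± 0.93 (limma, unadjusted p = 0.000728, adjusted p = 0.718). Zmynd8 (a chromatin reader), Mst1r (the receptor tyrosine kinase RON), Gm36595 and Mlst8 (a subunit of the mTOR complexes) were also at 0 in all 8 class 8 libraries, with differences of -3.22 ± 0.99, -2.46 ± 0.74, -1.77 ± 0.58 and -1.97 ± 0.69.

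Myh13, a muscle myosin heavy chain, had class 4 levels of 5.37, 0, 0 and 6.28 in WT and of 0, 6.87, 6.77 and 4.34 in TGA. In class 8 it was above 0 only in TGA number 3, at 0.45, and the difference was -3.65 ± 1.03. Apoa2, an apolipoprotein of HDL, had class 4 levels of 5.06, 6.11, 0 and 0 in WT and of 0, 5.73, 3.3 and 5.48 in TGA, and in class 8 it was above 0 only in TGA number 4, at 0.99. Its difference was -3.09 ± 1.04. Apoa1, its partner in HDL and a gene above 0 in all 16 libraries, had a difference of 0.06 ± 0.63. Add3 (an adducin of the membrane skeleton) and Fam69c had differences of -2.87 ± 0.86 and -2.18 ± 0.69, each with 1 class 8 library above 0.

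These zeros were not special to the leading genes alone. Over all genes tested, 174 (3.57%) were at 0 in all 8 class 8 libraries and 44 (0.903%) in all 8 class 4 libraries. The class 4 count is bounded by WT number 1 class 4, where 5.11% of tested values were 0. In class 8 the lowest share was 34.6%, in TGA number 3. Counts of genes at 0 in all 8 libraries, here and below, therefore do not compare detection between the classes. Among the 141 genes with a negative difference and an unadjusted p under 0.05, 45 were at 0 in all 8 class 8 libraries, and 81.5% of their class 8 values were 0 against 42.4% in class 4. Among the 180 with a positive difference, 9 were at 0 in all 8 class 4 libraries, and 69.8% of their class 4 values were 0 against 31.3% in class 8. Most of these differences thus contrast detected with undetected, and only 4 of the 141 and 6 of the 180 were above 0 in all 16 libraries.

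**Figure D4:**
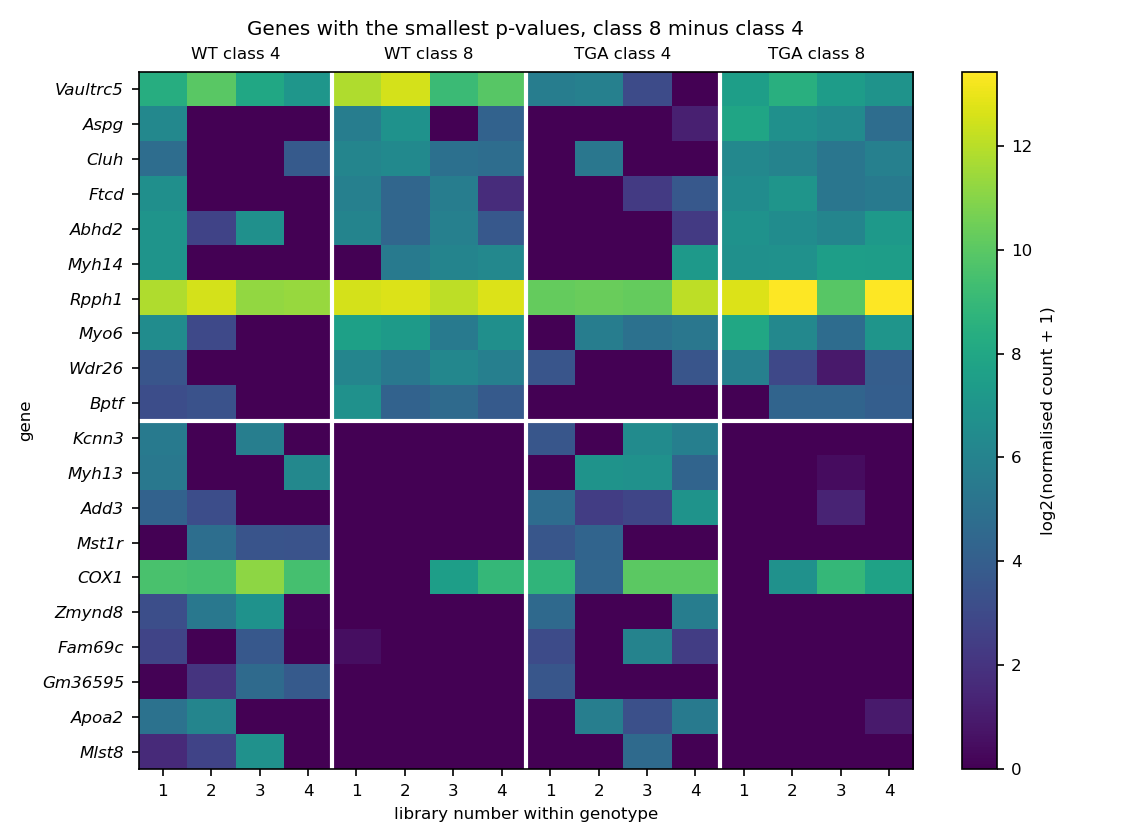
Levels, as log2(normalised count + 1), of the 10 genes with a positive and the 10 with a negative class 8 minus class 4 difference that had the smallest p over both genotypes (rows), in each of the 16 libraries (columns). Dark cells are values of 0: Kcnn3, Mst1r, Zmynd8, Gm36595 and Mlst8 are dark in all 8 class 8 columns, while Rpph1 is above 0 in all 16.

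Genes with a high mean level are less exposed to values of 0, and a mean of at least 8 over the 24 libraries, a limit chosen after the values were seen, kept 39 of the tested genes. Of these, 7 had a positive and 4 a negative difference at an unadjusted p under 0.05, which is 28.2% against 6.41% of the other 4836. Besides Vaultrc5, Rpph1, Snord15a and ND5 they were Hnrnpu, Rbm25, Plec, Mir6236, Baz2b, Fah and Cyb5r3. Hnrnpu, a nuclear RNA-binding protein, had WT levels of 9.62, 9.7, 8.88 and 9.2 in class 4 and 11.23, 11.23, 9.57 and 10.05 in class 8. Its difference was 1.19 ± 0.5 over both genotypes, 1.17 in WT and 1.22 in TGA. Rbm25, a splicing factor, did not overlap between the WT groups (class 4 at most 9.39 and class 8 at least 10.58), and its difference was 1.16 ± 0.53.

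Baz2b, a chromatin protein with a bromodomain, had class 4 levels of 10.8, 10.33, 9.96 and 10.57 in WT and 10.7, 11.29, 10.78 and 10.66 in TGA. In class 8 they were 7.84, 8.24, 9.93 and 9.31 in WT and 6.86, 8.63, 11.8 and 7.71 in TGA. All class 8 libraries but TGA number 3 lay below all class 4 libraries, and that library lay above them all. The difference was -1.85 ± 0.65 with it and -2.35 ± 0.6 without it (limma, adjusted p = 0.314). Fah, the last enzyme of tyrosine breakdown, stood at 16.41 in that library and between 8.34 and 11.21 in the other 7 of class 8, against 10.76 to 14.4 in class 4. Its difference was -1.63 ± 0.64 with the library and -2.41 ± 0.51 without it (adjusted p = 0.0668). For Cyb5r3, a reductase of cytochrome b5, the same library was the lowest of all 16 at 10.6, and the difference moved from -0.77 ± 0.33 to -0.31 ± 0.22 without it. TGA number 3 class 8 thus stood with or beyond the class 4 libraries for Rpph1, Baz2b and Fah, genes picked after their values were seen. It stood with the other class 8 libraries of TGA, above all 4 of class 4, for Vaultrc5 (7.43), Aspg (6.43), Abhd2 (6.1), Ftcd (5.25) and Keap1 (3.41). These genes were named for small p-values that its own levels helped to give. Neither set of genes places the library independently.

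Genes of liver metabolism mostly had positive medians over both genotypes, without a gene past the adjusted test. Of all genes tested, 52.4% had a positive difference over both genotypes, 44.3% in WT and 53.6% in TGA. At an unadjusted p under 0.05, 3.69% were positive and 2.89% negative over both genotypes. The counts of each list, here and in the next paragraphs, stand against these shares. Of 39 tested genes of the urea cycle and amino acid breakdown, 31 had a positive difference, with a median of 0.57, and 4 positive and 1 negative were at an unadjusted p under 0.05. The positive ones were Aspg, Ftcd and, named after their values were seen, Uroc1 (urocanase, of histidine breakdown, at 2.75 ± 1.18) and Glud1 (glutamate dehydrogenase, at 3.33 ± 1.28), and the negative one was Fah. Cps1, which starts the urea cycle, had a difference of 0.93 ± 1.13. Without the 2 libraries that stood apart the count was 34 of 39 and the median 0.99. Of 22 tested periportal genes, which mark hepatocytes near the portal vein, 15 were positive with a median of 0.46, and without those libraries 18 of 21 with a median of 1.36. Of 15 tested pericentral genes 11 were positive with a median of 0.6, among them Glul (glutamine synthetase) at 1.82 ± 1.11, and Rhbg (an ammonium transporter) stood at -1.35 ± 0.8.

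Of 20 tested genes of gluconeogenesis and glucose handling, 16 were positive over both genotypes with a median of 0.72. In WT 5 were positive and 15 negative with a median of -0.27, and in TGA 17 and 2 with a median of 1.58. G6pc, which releases glucose, had a difference of 2.07 ± 1.26 and Foxo1, a transcription factor of fasting, 1.49 ± 0.96. The fatty acid and triglyceride synthesis genes divided into 11 positive and 12 negative, and 2 of them had an unadjusted p under 0.05. Thrsp, a lipogenic regulator, had a difference of 2.97 ± 1.23, and Mlxipl (ChREBP, the transcription factor that responds to glucose) 2.37 ± 1.16. Fatty acid oxidation genes divided into 9 and 12, and Hadha, a subunit of its trifunctional enzyme, stood at 0.99 ± 0.94. Of 9 tested cholesterol genes 7 were positive, among them Abcg8 (a sterol exporter) at 1.31 ± 0.75.

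Of 19 tested cytochrome P450 genes 8 were positive and 11 negative in WT with a median of -0.25, and 13 and 4 in TGA with a median of 0.85. Over both genotypes 13 were positive with a median of 0.72, among them Cyp2d13 at 2.75 ± 1.21, Cyp4f15 at 1.22 ± 0.71 and Cyp2e1 at 0.72 ± 0.62. Of 24 tested conjugation and transport genes 16 were positive with a median of 0.58, and 5 were at an unadjusted p under 0.05. All 5 were Ugt1a genes, which make glucuronosyltransferases from shared exons, each with a difference of 2.54. Ugt1a10 and Ugt1a2 carried identical values in all 16 libraries (SE 1.18), so the 5 cannot be told apart and count as 1 measurement. Of 14 tested hepatocyte transcription factors 10 were positive with a median of 0.74. Ppara, the fasting regulator of fat oxidation, stood against that direction. Its class 4 levels were 4.93, 5.05, 0.98 and 4.6 in WT and 0.32, 6.62, 5.67 and 0.64 in TGA, its class 8 levels did not exceed 2.11, and its difference was -2.96 ± 1.04. Foxa3, a forkhead factor of liver genes, had a difference of 1.56 ± 0.8.

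For proteins that hepatocytes secrete, as for several lists, the medians of the 2 genotypes had opposite signs. The median of all genes tested was -0.13 in WT and 0.13 in TGA. Of the 14 nuclear genes of oxidative phosphorylation 2 were positive and 12 negative in WT, and 10 and 3 in TGA, and fatty acid and triglyceride synthesis had medians of -0.57 and 0.44. Of 44 tested genes of secreted proteins 20 were positive and 24 negative over both genotypes, with a median of -0.09. In WT 39 of 44 were negative with a median of -1.31, and in TGA 35 were positive and 7 negative with a median of 0.76. Without WT number 1 class 4, the WT median was -0.27 with 23 of 43 negative. That library also stood high in other lists with a negative WT median. Its mean for gluconeogenesis was 3.18, against 0.89 to 1.52 in the other WT class 4 libraries and 0.79 to 1.69 in WT class 8. For P450 genes it was 3.63, against 1.02 to 1.31 and 1.28 to 2.56. Housekeeping means were 4.38, 2.59, 0 and 3.11 in WT class 4 and 0 to 1.78 in WT class 8. Gc, the vitamin D carrier, had a difference of -0.02 ± 1.76 in WT and 4.91 ± 1.76 in TGA. Ttr, the thyroxine carrier, had -0.34 ± 1.75 and 3.66 ± 1.75, and Alb -2.43 ± 1.71 and 0.27 ± 1.71. The 6 housekeeping genes tested had medians of -1.02 in WT and 1.84 in TGA, among them Eef2 (an elongation factor) with -0.95 ± 1.66 and 4.67 ± 1.66, and Actb (beta-actin) with -0.15 ± 1.59 and 3.36 ± 1.59. Eef1a1, another elongation factor, had -1.1 ± 1.8 and 4.33 ± 1.8. The group shares of values at 0 given above, higher in class 8 in WT and in class 4 in TGA, moved with these signs. In WT that direction rests on WT number 1 class 4, and the part of the zeros in these signs was not tested.

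**Figure D5:**
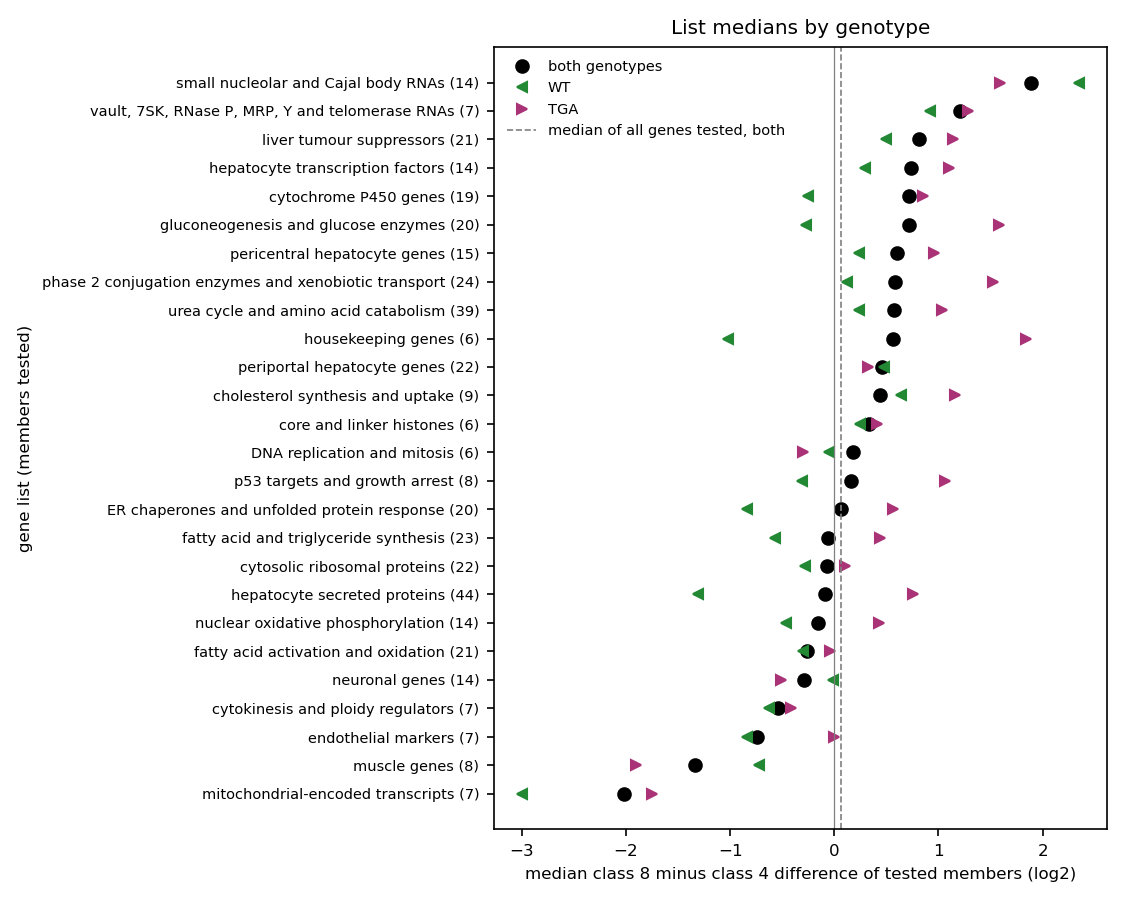
Median class 8 minus class 4 difference (log2) of the tested members of each of 26 gene lists with at least 5 tested, over both genotypes (circles) and in WT and TGA (triangles), beside the median of all genes tested (dashed, 0.06). Over both genotypes the snoRNA list and the vault, 7SK and RNase P list lie highest and mitochondrial-encoded transcripts lowest at -2.02. In TGA housekeeping genes lie highest (1.84) and muscle genes lowest (-1.9), and the secreted proteins have medians of -1.31 in WT and 0.76 in TGA.

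The growth and ploidy genes lay mostly below the filter on low values, and of 25 fetal liver and liver cancer genes and 34 interferon response genes only 3 each were tested, none at an unadjusted p under 0.05. Of 45 genes of DNA replication and mitosis, 6 were tested, 4 positive and 2 negative, with Bub1 (a spindle checkpoint kinase) at -1.17 ± 0.95 and Ttk (another) at -0.53 ± 0.91. Of 31 genes of cytokinesis and ploidy control, 7 were tested with a median of -0.54, and Incenp (of the chromosomal passenger complex) had a difference of 1.98 ± 1.04 and E2f4 (a cell cycle repressor) of -1.33 ± 0.84. Of 8 tested p53 and growth arrest genes, 5 were positive, and 2 of these had an unadjusted p under 0.05. A positive difference was held by 52.4% of all genes tested, and by 3.69% at that p. Gadd45g, a stress gene, had WT levels of 6.58, 6.65, 0 and 0 in class 4 and 6.91, 7.21, 7.37 and 7.93 in class 8, without overlap, and a difference of 3.15 ± 1.17. In WT, class 8 lay above class 4 without overlap for 0.349% of all genes tested. Plk3, a stress kinase, had a difference of 2.04 ± 0.97.

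Of 21 tested liver tumour suppressors, 14 were positive with a median of 0.81. Keap1, which marks the stress factor NRF2 for breakdown, was at 0 in all 4 TGA class 4 libraries and at 5.59, 5.78, 3.41 and 4.31 in TGA class 8. In WT it was at 2.18, 0, 0 and 0.95 in class 4 and at 0 in all 4 of class 8. Tsc1, a brake on mTOR signalling, had WT levels of 3.8, 5.04, 8.09 and 0 in class 4 and of 0 in class 8, and a difference of -2.37 ± 0.94 over both genotypes. Of 6 tested histone genes, H2afy (macroH2A1) had a difference of -2.36 ± 1.1 and H1f0 (a linker histone) of 1.82 ± 1.05. Endoplasmic reticulum chaperones divided into 10 and 10 over both genotypes, into 6 positive and 14 negative in WT (median -0.84) and into 14 and 3 in TGA (median 0.56), with Dnajb9 at -2.06 ± 1.12 and Xbp1 (the splicing-activated stress factor) at 1.56 ± 0.91. Cytosolic ribosomal proteins divided into 10 positive and 12 negative, with Rpl21 at 1.27 ± 0.77 and Rpl7 at -1.39 ± 1, both uncertain because processed pseudogenes of ribosomal protein genes share their reads. In the nuclear respiratory chain, Ndufv1 (of complex I) had 1.48 ± 0.99 and Sdha (of complex II) -1.58 ± 1.2.

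Markers of other cells were few. Over 28 endothelial markers 7 were tested, 2 positive and 5 negative with a median of -0.74, and Vwf and Kdr had differences of -1.76 ± 1.01 and -1.27 ± 0.88. Summed endothelial counts ran from 12.6 to 137 in WT class 4, 1.91 to 169 in WT class 8, 0 to 246 in TGA class 4 and 0 to 110 in TGA class 8. Of 22 macrophage and Kupffer cell markers 2 were tested, and Vsig4, Timd4, Cd5l, Cd68 and C1qa were at 0 in all 16 libraries. Of 22 stellate cell and fibroblast markers 2 were tested, with Acta2 and Tagln at 0 throughout, and of 17 cholangiocyte markers 3, with Spp1 at 0 throughout. Of 19 lymphocyte markers 1 was tested, the B cell factor Pax5, at 0 in all class 8 libraries (-2.07 ± 0.93, unadjusted p under 0.05), and Cd3e and Cd79a were at 0 throughout. Of 15 neutrophil markers 1 was tested, with S100a8 and S100a9 at 0 throughout, and no erythroid marker of 11 was tested, with the globin genes Hba-a1 and Hbb-bs at 0 throughout.

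Muscle and neuronal genes were included as lists foreign to liver. Of 8 tested muscle genes 7 were negative with a median of -1.34, led by Myh13 and by Tnni1 (a slow-muscle troponin) at -1.58 ± 0.68, but over all 32 detected members 15 averaged higher and 17 lower in class 8. Ckm, Myl1 and Myl2 were at 0 in all 16 libraries. Of 14 tested neuronal genes 5 were positive and 9 negative, led by Kcnn3 and by Dlgap1 (a synaptic scaffold) at 1.63 ± 0.85, with Snap25 at 0 throughout. Summed neuronal counts ran from 1420 to 45300 in WT class 4 and 11000 to 47700 in WT class 8. Their WT medians, 8360 and 12400, exceeded those of the secreted proteins, 3560 and 3770. In TGA they were lower, 4540 and 1420 against 13600 and 28400. The members that gave these sums were not singled out. The part of any of these cell types in the differences above was not tested.

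Within WT alone, no gene passed the adjusted test (smallest adjusted p = 0.749). At an unadjusted p under 0.05, 136 genes (2.79%) were positive and 87 (1.78%) negative, and the 4 class 8 libraries lay above the 4 class 4 libraries for 17 genes (0.349%) and below them for 15 (0.308%). The smallest p belonged to Fip1l1, a factor of messenger RNA polyadenylation, which was at 0 in all 8 TGA libraries and all 4 of WT class 4 and at 6.15, 0, 5.49 and 3.16 in WT class 8 (3.7 ± 0.93). Cylc2, a sperm head protein gene, stood at 0, 2.82, 0 and 0 in WT class 4 and at 6.04, 5.75, 6.82 and 2.86 in WT class 8 (4.66 ± 1.24). The uncharacterised Gm40402 and Gm33172 had differences of 3.84 ± 1.01 and 2.28 ± 0.63. In the TGA libraries of these classes all 4 were at 0, except for 1.61 for Gm40402 in number 3 of class 8.

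Mir6236, whose mature sequence is printed above, was at or near the highest value of the table in most libraries. The table gives a value per gene symbol, and the reads behind it were not resolved to the mature arm. In WT its levels were 16.41, 13.27, 14.32 and 14.32 in class 4 and 14.32, 16.41, 16.41 and 16.41 in class 8, and in TGA they were 16.41 in 7 of 8 libraries and 15.54 in the other. The value 16.41 is the table's ceiling, so differences among libraries at it cannot be seen. The WT difference was 1.31 ± 0.37 (adjusted p = 0.755). Without WT number 1 class 4 it was 1.92 ± 0.33 and without WT number 1 class 8 1.83 ± 0.34, and both passed the test (limma, adjusted p = 0.00441 and 0.00966). The SE pools the spread of all groups, including TGA class 4, where every library stood at the ceiling and the standard deviation was 0. The standard deviations were 1.32 in WT class 4 and 1.05 in WT class 8. The libraries left out were the highest of WT class 4 (16.41) and the lowest of WT class 8 (14.32). Both passes thus came after a contrary value was left out, with an SE that the ceiling can make too small.

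Within TGA alone, no gene passed the adjusted test either (smallest adjusted p = 0.565). At an unadjusted p under 0.05, 264 genes (5.42%) were positive and 115 (2.36%) negative, and the groups did not overlap for 57 genes higher in class 8 (1.17%) and 11 lower (0.226%). Abhd2 led, at 0, 0, 0 and 2.26 in class 4 and 6.82, 6.52, 6.1 and 7.19 in class 8 (6.09 ± 1.56), followed by Keap1 (4.77 ± 1.27), Ammecr1 (3.95 ± 1.05), Aspg and Ccdc141 (3.33 ± 0.93). Ammecr1 was at 0 in all 4 class 4 libraries and in number 2 of class 8, and stood at 6.08, 5.73 and 3.97 in the others. Without TGA number 3 class 8, Rpph1 passed the test in TGA at 2.46 ± 0.45 (limma, adjusted p = 0.00988), and without TGA number 2 class 8 Ammecr1 did at 5.26 ± 1.06 (adjusted p = 0.0437).

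Whether the class difference differed between genotypes was tested as an interaction, and no gene passed (limma, smallest adjusted p = 0.925). At an unadjusted p under 0.05, 155 genes (3.18%) had a larger and 73 (1.5%) a smaller class difference in TGA than in WT, and the median was 0.22. Pzp, a plasma protease inhibitor, had WT levels of 7.23, 2.81, 5.86 and 5.86 in class 4 and of 0 in all 4 of class 8. In TGA it was at 6.22, 0, 0 and 6.48 in class 4 and 5.96, 5.87, 4.97 and 7.08 in class 8, an interaction of 8.24 ± 2.26. Sec14l2 (a lipid-binding protein), Chuk (the kinase IKK alpha) and Vps13d (a lipid transfer protein) had interactions of 8.06 ± 2.34, 7.9 ± 2.35 and 7.7 ± 2.26, and Ccdc141 of 4.38 ± 1.32. In all 5 at least 3 of the 4 WT class 8 libraries were at 0.

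Across the 4875 genes the WT and TGA differences had a Pearson correlation of 0.072 and a Spearman correlation of 0.072, given as a description. The groups share no library, but genes are not independent replicates. The group share of values at 0 moved in opposite directions in the 2 genotypes, in WT through WT number 1 class 4. Of 4651 genes with a difference other than 0 in both, 2428 (52.2%) had the same sign. Of the 4875 genes, 223 in WT and 379 in TGA had an unadjusted p under 0.05, and 6 had it in each. Of these 6, Vaultrc5, Cluh, Bptf and Kcnn3 had the same sign. Fgb (fibrinogen beta chain) and Zfpm2 (a GATA cofactor) had opposite signs. The overlap was not tested against the number that unrelated comparisons would share, so it does not show agreement between genotypes.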

How the data were processed

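RNA-seq was made from mouse liver in 24 libraries. Per the labels' protocols, RNA was purified with a kit for fixed, embedded tissue and sequenced as single-end reads of 75 bp on a NextSeq 500. The submitters' processing notes name TopHat, edgeR and the build mm9. Versions, annotation and normalization were not given in the sources used here. The table that the authors deposited holds 35974 gene symbols with natural log values. This unit was read from the values: the highest is shared by 20 of 24 libraries, as quantile normalization leaves it, and the natural log of count + 1 was assumed and divided by the natural log of 2. Depth is unknown, and the number of libraries limits the precision.

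Groups follow the titles. The 4875 genes that reached a deposited 1 in 4 or more of the 24 libraries were fitted with limma 3.58.1 (R 4.3.3, trended prior, 6 group means, Benjamini-Hochberg over all genes, threshold 0.05), after it was tested on simulated data. The prior weighed 27.8 degrees of freedom against 18 residual ones. Named genes are the 10 smallest p-values in each direction, the 5 smallest within each genotype and for the interaction, all tested mitochondrial-encoded genes, the 2 smallest p-values of each list with at least 5 tested, and a fixed panel; some of these are not reported here. The comparison, members and 34 lists were chosen with earlier results of these data known. Alternatives were a pseudocount of 16, other filters on low values, other weights and priors, a covariate for genes above 0, a replicate block, and libraries left out.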

Additional observations from a re-analysis of the deposited data

Results flagged for a closer look

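In groups of 4 libraries, values were set against the rest of their group: the number of genes above 0, the means of 26 lists in 4 groups (104 means), and the named genes in the 88 groups where no library was at 0. Chance alone picks about 1 group in 20. One count, 12 list means and 13 gene values stood far from the rest of their group. No explanation of them was tested.

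The count was that of TGA number 3 class 8, with 9096 genes above 0. The same library stood apart for the mean of the muscle genes (3.71), for Mir6236 (15.54, below the ceiling of the others), Snord17 (0.5) and Apoa1 (10.19). WT number 1 class 4, the library with 14469 genes above 0, stood above its group in 7 list means: periportal genes (6.19), urea cycle and amino acid breakdown (4.49), cytochrome P450 genes (3.63), pericentral genes (2.92), conjugation enzymes (2.76), tumour suppressors (2.73) and ribosomal proteins (2.48), and for Apoa1 (13.42).

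WT number 3 class 4 had the highest mean of the mitochondrial-encoded transcripts (11.65), with COX1 at 11.15 and ND1 at 11.1, and the lowest Ppara of its group (0.98). WT number 2 class 8 stood above its group for periportal genes (4.34), secreted proteins (2.76) and fatty acid and triglyceride synthesis (2.07). Single values far from their group were Rpph1 in TGA number 4 class 4 (12.08), ND1 in TGA number 2 class 8 (3.73), Alb in TGA number 4 class 8 (10.35), Apoa1 in WT number 4 class 8 (9.95), H2afy in WT number 2 class 4 (1.97) and Mir6236 in WT number 1 class 8 (14.32).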

How the results depend on the processing

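Counts of genes past the adjusted test were 0 in all 4 comparisons with a pseudocount of 16, without or with a stricter filter on low values, with class 4 and 8 libraries only, with array weights, with a constant prior, with the covariate for genes above 0 and with the replicate block. Without the 4 libraries over 7000 genes above 0 they were 5 over both genotypes (Rpph1, Snord17, Aspg, Ftcd and C130074G19Rik), 1 in WT (Mir6236) and 2 in TGA (Rpph1 and Baz2a), and without WT number 1 class 4 and TGA number 3 class 8, a choice added after seeing the data, 1, 1 and 2. Leaving out 1 library at a time gave 0 to 1 over both genotypes, 0 to 2 in WT and 0 to 1 in TGA, the calls arising without WT number 1 class 4, WT numbers 1 and 2 class 8 or TGA numbers 2 and 3 class 8. The cause was not tested. The difference in genes above 0 ran from -1360 to 888 on leaving out 1 library, and was 134 when detection was set at a deposited value of 1 (exact permutation, p = 0.582).

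The residuals did not settle whether library numbers pair the samples. Residuals of the same number correlated between -0.096 and 0.072, and those of different numbers between -0.087 and 0.113. Of 8 class 8 libraries, 4 were closest to the class 4 library of their number. With the replicate block the difference in genes above 0 was -547 (exact sign flips, p = 0.914), and the smallest adjusted p over both genotypes was 0.165 (limma). Of 88 results for named genes, 87 kept their sign in every alternative that tested them, and Apoa1, near 0, ran from -0.24 to 0.7 on leaving out 1 library. Many of these genes were named for small p-values in the same data, and 16 of the 26 alternatives leave out only 1 library. Kept signs were therefore likely in advance. Of 665 list medians under alternatives, 3 moved by more than the spread between libraries. That limit is wide, and a median near 0 can change sign within it. For the secreted proteins, with a median of -0.09, the standard deviations of library means were 0.64 to 2.14 in the 4 groups. Genes at an unadjusted p under 0.05 numbered 321 over both genotypes, 153 with the stricter filter and 191 with class 4 and 8 libraries only. They numbered 223 in WT, 379 in TGA and 228 for the interaction, against 541, 650 and 350 with no filter and 76, 174 and 107 with the stricter one, where 21390 and 2105 genes were tested. Unknown depth and values of 0 limit all of these results.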

Other observations

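Fgb and Zfpm2, chosen after their values were seen, had class differences of opposite sign in the 2 genotypes at an unadjusted p under 0.05 in each. Fgb averaged 3.48 in WT class 4 and was at 0 in all 4 WT class 8 libraries, while in TGA it was at 0 in all 4 class 4 libraries and averaged 3.49 in class 8. Zfpm2 averaged 2.76 in WT class 4, 0 in WT class 8, 0 in TGA class 4 and 2.98 in TGA class 8. The interaction was 6.97 ± 2.35 for Fgb and 5.75 ± 1.78 for Zfpm2 (limma, adjusted p = 0.925 for both).

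Baz2a, a paralogue of Baz2b and likewise chosen after its values were seen, averaged 8.61 in TGA class 4 and 3.48 in TGA class 8, a difference of -5.13 ± 1.66 (limma, adjusted p = 0.565). It was -7.41 ± 1.31 without the libraries over 7000 genes above 0 (adjusted p = 0.0118). In WT its difference was -1.21 ± 1.66. C130074G19Rik, chosen in the same way, was above 0 in all 8 class 8 libraries and at 0 in 4 of 8 class 4 libraries, with a difference of 3.4 ± 1.18 over both genotypes and of 4.9 ± 0.96 without the libraries over 7000 genes (adjusted p = 0.0247).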
